A study of Homo sapiens with 21 samples.

Results

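The 40 genes described here act in G2 and mitosis. They were taken from a list of genes known for these stages, arranged by role, and all 40 were found in a count table of 26485 genes and passed its filter on low counts, which kept 14018 genes. They were followed in MDA-MB-436, an established line of breast cancer cells with mutant BRCA1. Lentivirus gave these cells a Dox-inducible hairpin, either one against RNF8 (shRNF8) or a control (shScr). Polyadenylated RNA was sequenced in 3 shRNF8 and 3 shScr libraries, and hybrids of DNA and RNA were pulled down from sonicated chromatin with the antibody S9.6 (DRIP-seq) in 4 shRNF8 and 2 shScr libraries. Each DRIP library has an RNase-treated partner that bears its number. Each arm is labelled with 1 hairpin name and no rescue, and the labels give no time in doxycycline. Nothing in them says that replicates were grown apart, so a p-value here reflects the spread between these libraries, which may be technical. Values of a group are given in the order of its replicate numbers.

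Entry into mitosis is driven by cyclin-dependent kinase 1 with its A and B type cyclins, which CDC25 phosphatases switch on. Aurora and Polo-like kinases then build the spindle, the chromosomal passenger complex and the checkpoint proteins watch the attachment of chromosomes to microtubules, and the anaphase-promoting complex ends mitosis by marking cyclins and securin for destruction. Transcripts of these genes are repressed early in the cell cycle by the DREAM complex and raised in G2 by the MYB-MuvB complex and FOXM1, through a short promoter element called the CHR and, at many of the genes, through CCAAT boxes bound by NF-Y. RNF8 is a ubiquitin ligase recruited to DNA double-strand breaks, and the series title also ties it to the resolution of R-loops, structures where RNA stays paired with DNA.

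Promoter sequence was compared first, because it was measured in neither assay, though the genes were chosen with earlier results of these data known. The genes were also picked as known genes of G2 and mitosis, a class described above as regulated through CHR and CCAAT elements. An excess of these letters therefore describes the list and is not an independent result. RefSeq promoter windows (build GRCh38.p14, 250 bases before to 50 after the gene start) were matched for 34 of the 40 genes. FOXM1, AURKA, BIRC5, TTK, UBE2C and TPX2 had no window matched. The CHR letters TTTGAA or TTCGAA, read on both strands, occurred in 24 of the 34 windows (70.6%), against 10.6% of the windows of 10084 tested genes, the 34 included. The letters CCAAT on either strand occurred in 26 windows (76.5%, against 36.1%), and 2 or more copies in 17 windows (50%, against 13.1%). Both elements were present in 20 windows (58.8%, against 4.58%). The windows had a median GC content of 61.2%, against 65.7% in all windows. A match is a run of letters and not a shown binding site, and adjacent CHR and CCAAT matches can share letters, as in TTTGAATTGG. Windows of 5 genes are given because the results below turn on them, PLK1, CCNB1 and CDC25C for their S9.6 peaks at the gene start, TOP2A for having no peak, and MKI67 for its long exon. They lie on the plus strand at chr16:23678639-23678938 for PLK1 and chr5:69166900-69167199 for CCNB1, and on the minus strand at chr5:138338306-138338605 for CDC25C, chr17:40417847-40418146 for TOP2A and chr10:128126374-128126673 for MKI67. Capitals mark CHR and CCAAT letters on either strand.
PLK1: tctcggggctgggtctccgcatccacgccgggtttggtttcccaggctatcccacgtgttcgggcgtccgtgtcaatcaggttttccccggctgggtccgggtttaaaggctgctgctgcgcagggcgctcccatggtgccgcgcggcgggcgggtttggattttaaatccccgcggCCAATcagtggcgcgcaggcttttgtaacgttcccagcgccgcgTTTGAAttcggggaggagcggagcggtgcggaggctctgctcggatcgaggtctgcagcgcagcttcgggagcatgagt
CCNB1: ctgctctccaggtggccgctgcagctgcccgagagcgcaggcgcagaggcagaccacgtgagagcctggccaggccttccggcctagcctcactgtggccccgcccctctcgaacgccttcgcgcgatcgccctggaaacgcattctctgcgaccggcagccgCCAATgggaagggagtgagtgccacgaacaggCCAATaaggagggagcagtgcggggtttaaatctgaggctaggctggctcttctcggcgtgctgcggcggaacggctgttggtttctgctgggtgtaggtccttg
CDC25C: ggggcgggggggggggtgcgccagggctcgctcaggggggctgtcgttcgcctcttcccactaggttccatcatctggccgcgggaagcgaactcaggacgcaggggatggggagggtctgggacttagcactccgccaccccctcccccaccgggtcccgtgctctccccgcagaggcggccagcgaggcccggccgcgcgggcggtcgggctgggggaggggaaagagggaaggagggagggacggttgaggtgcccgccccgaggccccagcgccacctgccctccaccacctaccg
TOP2A: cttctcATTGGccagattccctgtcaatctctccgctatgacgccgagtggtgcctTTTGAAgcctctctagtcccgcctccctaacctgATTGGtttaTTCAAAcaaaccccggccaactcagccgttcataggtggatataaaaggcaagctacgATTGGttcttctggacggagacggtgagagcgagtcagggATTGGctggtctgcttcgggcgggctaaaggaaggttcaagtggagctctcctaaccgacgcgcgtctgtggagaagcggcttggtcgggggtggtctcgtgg
MKI67: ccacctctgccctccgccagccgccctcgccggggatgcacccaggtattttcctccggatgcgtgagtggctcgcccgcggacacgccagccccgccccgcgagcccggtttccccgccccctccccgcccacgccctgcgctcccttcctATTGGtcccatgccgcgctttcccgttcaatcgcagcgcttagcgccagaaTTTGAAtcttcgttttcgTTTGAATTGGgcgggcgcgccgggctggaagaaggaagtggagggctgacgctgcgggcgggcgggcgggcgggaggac
The PLK1 window held 1 CCAAT and 1 CHR copy close together, the CCNB1 window held 2 CCAAT copies and no CHR, and the CDC25C window held none of these letters. For each gene only the window nearest its outermost start in the count table was searched. Letters at other starts of a gene, CDC25C included, would be missed. The TOP2A window held 2 CHR and 4 CCAAT copies, and the MKI67 window held 2 of each. The RefSeq start of MKI67 lies 219 bases from the start in the count table, and that of CCNB1 140 bases.

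RNF8 was checked first and followed its labels. It had 9.33, 9.99 and 7.94 CPM (counts scaled to library size by TMM) in the shRNF8 libraries, against 28.9, 29.1 and 28.0 CPM in the shScr libraries. The groups lay far apart, and RNF8 fell with a log2 fold change of -1.66 (SE 0.13, adjusted p = 0.000165 by the quasi-likelihood test of edgeR, with Benjamini-Hochberg adjustment over 14018 genes). The RNA libraries held 18121181 to 20006954 counts. shScr replicate 1 stood apart over all genes. The first principal component carried 49.1% of the variance and placed it at -12.5, among the shRNF8 libraries (-11.2, -9.55 and -21.0), while shScr replicates 2 and 3 lay together at the other end (replicate 2 at 27.3). The second component (25.4%) placed shScr replicate 1 at -29.8, apart from all other libraries of both hairpins, which ran from -1.06 to 11.9. Cell type markers were read as whole lists. Of 8 basal or mesenchymal markers, 6 were tested and 0 called with all libraries, 2 had a positive and 4 a negative log2 fold change (median -0.16), and their summed level ran from 2054 to 2205 CPM in shRNF8 libraries and from 1990 to 2227 CPM in shScr libraries. VIM averaged 1073 CPM in shRNF8 libraries and 963 CPM in shScr libraries. EGFR averaged 125 CPM in shRNF8 libraries and 164 CPM in shScr libraries, and KRT17 averaged 1.09 CPM in shRNF8 libraries and 2.53 CPM in shScr libraries. Without shScr replicate 1, VIM was called higher (log2 fold change 0.25, edgeR adjusted p = 0.0315), and EGFR (-0.54, adjusted p = 0.00212) and KRT17 (-1.67, adjusted p = 0.000621) were called lower. Of 10 luminal markers, 6 were tested and 0 called (median -0.16), with a summed level of 1062 to 1109 CPM in shRNF8 libraries and 865 to 1453 CPM in shScr libraries, and KRT8 was called higher without shScr replicate 1 (0.38, edgeR adjusted p = 0.00193). The 4 immune markers summed to 6.24 to 10.4 CPM in shRNF8 libraries and 9.94 to 13.0 CPM in shScr libraries, nearly all of it CD14, which was called lower without shScr replicate 1 (-0.69, edgeR adjusted p = 0.0115). The 3 endothelial markers summed to at most 0.769 CPM in shRNF8 libraries and 1.35 CPM in shScr libraries, and PECAM1 among them was called lower without shScr replicate 1 (edgeR adjusted p = 0.0116). The defining markers KRT5, CD3E and CDH5 were at 0 in both groups, and PTPRC, ESR1 and KRT19 averaged at most 0.0512 CPM. The part of these markers in the results was not tested.

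No G2 or mitosis gene passed the threshold of an adjusted p under 0.05 in RNA with all 6 libraries. The count was 0 of 40 (edgeR), against 2.54% of all tested genes, 0.97% higher and 1.57% lower in shRNF8. DESeq2 and limma-voom also called 0 of the 40. An unadjusted p under 0.05 was reached by 6 of the 40, against 20.1% of all genes. The log2 fold changes of the 40 had a median of 0.09 and ran between -0.39 for AURKA and 0.31 for HMMR, and 29 of the 40 were positive, against a median of -0.00 and 49.2% positive among all genes. In bulk RNA, a different share of cells in G2 or mitosis and a different amount of RNA of these genes per cell cannot be told apart.

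The level of the 40 genes differed between libraries of the same hairpin. Expressed as log2 CPM minus each gene's mean over the 6 libraries, the median of the 40 genes was -0.00, 0.00 and 0.14 in the shRNF8 libraries and 0.15, -0.11 and -0.14 in the shScr libraries. shRNF8 replicate 3 and shScr replicate 1 were thus the high libraries, 1 in each group, and the groups overlapped. Of the 40 genes, 19 had their highest CPM in shRNF8 replicate 3 and 19 in shScr replicate 1. In shScr replicate 1, 37 of the 40 genes stood above both other shScr libraries, against 42.0% of all tested genes. In shRNF8 replicate 3, 29 of the 40 stood above both other shRNF8 libraries, against 40.3% of all genes. The median coefficient of variation of the 40 genes was 6.48% among the shRNF8 libraries, 12.1% among the shScr libraries and 2.88% between shScr replicates 2 and 3.

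**Figure D1:**
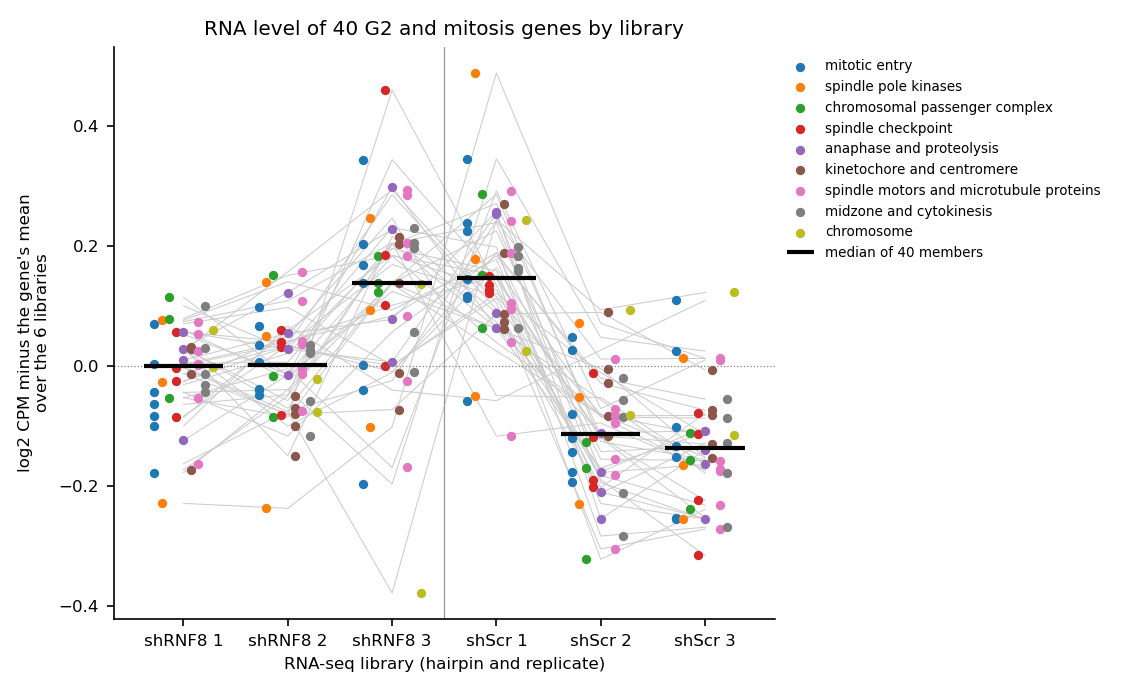
RNA level of each of the 40 genes (points, coloured by role, joined by grey lines) in each RNA-seq library, as log2 CPM minus the gene's mean over the 6 libraries, with shRNF8 libraries on the left and shScr libraries on the right. Black bars are the medians of the 40 genes, which are highest in shRNF8 replicate 3 (0.14) and shScr replicate 1 (0.15) and lowest in shScr replicates 2 and 3 (-0.11 and -0.14).

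Leaving out shScr replicate 1 changed the calls. With 3 shRNF8 and 2 shScr libraries, 12 of the 40 genes were called higher in shRNF8 and 1 lower (edgeR, adjusted p under 0.05), against 12.8% of all genes called higher and 14.3% lower. The genes called higher were CCNA2, PLK1, CDCA8, BUB1, MAD2L1, CDC20, UBE2C, CDCA3, KIF11, NUSAP1, HMMR and ANLN, and the gene called lower was AURKA. The median log2 fold change of the 40 was then 0.19, with 33 positive, against 49.9% of all genes. Leaving out shRNF8 replicate 3 as well, the library of its group farthest from the other replicates over all genes, left 2 libraries against 2 and gave 17 genes higher and 4 lower (AURKA, MKI67, CDC25B and TPX2), against 17.7% and 18.8% of all genes, with a median of 0.12. Leaving out shRNF8 replicate 3 alone gave a median of 0.04. Leaving out any 1 library other than shScr replicate 1 gave 0 calls among the 40. In shScr replicate 1, 37 of the 40 genes stood above both other shScr libraries. Leaving it out therefore raised their fold changes and narrowed their shScr spread by construction, so calls made without it are descriptions. Why shScr replicate 1 stood apart, and its part in the differences between the hairpins, was not tested.

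**Figure D2:**
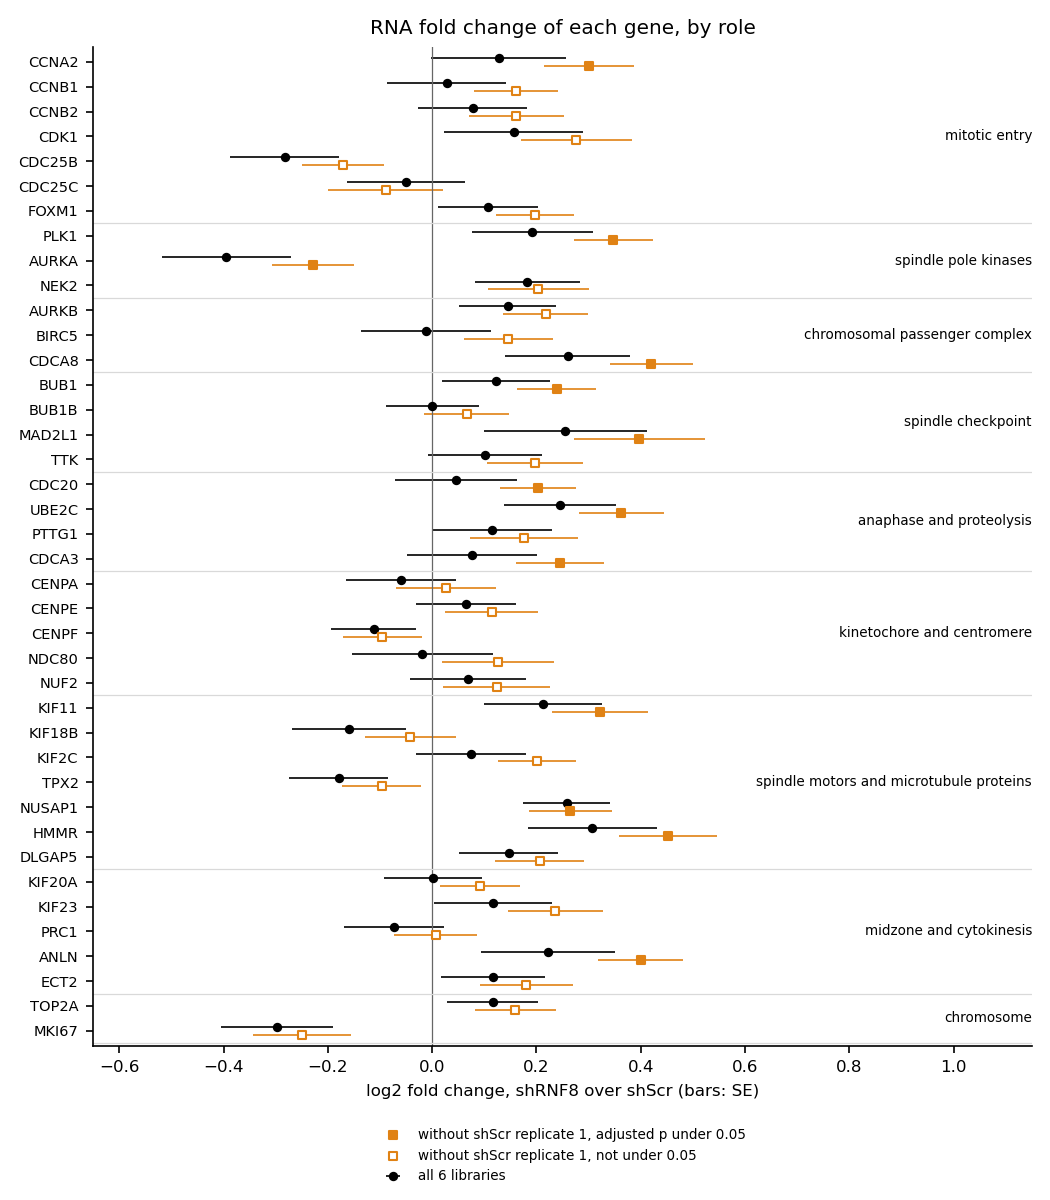
log2 fold change of each gene, shRNF8 over shScr, with its standard error, by role from mitotic entry at the top to chromosome proteins at the bottom. Black circles use all 6 libraries and pass no threshold, and orange squares leave out shScr replicate 1, filled where the adjusted p (edgeR) is under 0.05, as for 12 genes to the right of 0 and AURKA to the left.

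The genes of mitotic entry comprised 5 with a positive and 2 with a negative log2 fold change. CCNB1, the main partner of CDK1 at mitotic entry, had 267, 268 and 303 CPM in the shRNF8 libraries, against 322, 250 and 251 CPM in the shScr libraries. Its groups overlapped, since shScr replicate 1 was the highest library of the 6, and its log2 fold change was 0.03 (SE 0.11). CDK1 itself had 196, 198 and 260 CPM in shRNF8 libraries, against 226, 189 and 172 CPM in shScr libraries, and also overlapped. CCNA2, the cyclin that works in S phase and G2, had 122, 122 and 140 CPM in shRNF8 libraries, against 143, 106 and 102 CPM in shScr libraries. Its groups overlapped, with a log2 fold change of 0.13 (SE 0.13, edgeR adjusted p = 0.616), and CCNA2 was called without shScr replicate 1 (0.30, SE 0.09, adjusted p = 0.0162). CDC25B, the phosphatase that first activates CDK1, ran the other way, with 195, 214 and 192 CPM in shRNF8 libraries, against 280, 228 and 224 CPM in shScr libraries. Each shRNF8 library was below each shScr library, but the difference missed the threshold (log2 fold change -0.28, SE 0.10, edgeR adjusted p = 0.165). CDC25C, its later-acting relative and the gene of the lowest CPM among the 40, had 19.4, 21.7 and 20.2 CPM in shRNF8 libraries, against 19.9, 21.1 and 22.4 CPM in shScr libraries, with overlapping groups. FOXM1, the transcription factor that acts on many of the other genes, was the highest of the 40 in CPM, with 528, 538 and 503 CPM in shRNF8 libraries, against 544, 445 and 469 CPM in shScr libraries. Its log2 fold change was 0.11 (SE 0.10). FOXM1 overlaps RHNO1, and as the counting used no strand, reads of the overlap cannot be told apart. Among genes called without shScr replicate 1, CCNA2, PLK1, CDCA3 and ANLN also overlap another gene (EXOSC9, ERN2, GNB3 and KIAA0895).

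Groups that did not overlap were found for 7 genes, 2 higher and 5 lower in shRNF8, against 12.5% of all genes higher and 12.8% lower. NEK2, a kinase of centrosome separation, and NUSAP1, a microtubule-bundling spindle protein, were the higher ones. CDC25B, AURKA, CENPF, TPX2 and MKI67 were the lower ones, and none of the 7 passed the threshold. Without shScr replicate 1, 23 genes were higher and 5 lower without overlap, against 27.4% and 27.8% of all genes.

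Of the 3 spindle pole kinases, AURKA and NEK2 had non-overlapping groups and PLK1 overlapping ones. AURKA, the kinase of spindle poles that TPX2 activates, had 168, 167 and 183 CPM in shRNF8 libraries, against 276, 207 and 199 CPM in shScr libraries. All 3 shRNF8 libraries lay below all 3 shScr libraries. The log2 fold change of -0.39 (SE 0.12) had the smallest adjusted p of the 40 genes (edgeR, 0.110), and it was -0.23 (SE 0.08, adjusted p = 0.0387) without shScr replicate 1. TPX2 itself had 417, 443 and 459 CPM in shRNF8 libraries, against 552, 470 and 471 CPM in shScr libraries, also without overlap (log2 fold change -0.18, SE 0.09, edgeR adjusted p = 0.317). PLK1, the Polo-like kinase of mitotic entry and spindle assembly, had 217, 226 and 219 CPM in shRNF8 libraries, against 232, 175 and 172 CPM in shScr libraries. The shRNF8 libraries of PLK1 were close to each other and between the shScr libraries, with a log2 fold change of 0.19 (SE 0.12), and of 0.35 (SE 0.08, edgeR adjusted p = 0.00285) without shScr replicate 1.

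Of the 3 chromosomal passenger genes among the 40, CDCA8 (borealin) had the largest log2 fold change in size. It had 158, 166 and 170 CPM in shRNF8 libraries, against 166, 120 and 127 CPM in shScr libraries. shScr replicate 1 matched the shRNF8 libraries while the other shScr libraries were lower, and the log2 fold change was 0.26 (SE 0.12, edgeR adjusted p = 0.255) with all libraries and 0.42 (SE 0.08, adjusted p = 0.00100) without that library. AURKB, the kinase of the complex, and BIRC5 (survivin) had log2 fold changes of 0.14 and -0.01. INCENP, the scaffold of the complex and not one of the 40, averaged 128 CPM in shRNF8 libraries and 165 CPM in shScr libraries (log2 fold change -0.36, edgeR adjusted p = 0.0838), and was called lower without shScr replicate 1 (adjusted p = 0.0141). CDCA8 and INCENP thus differed in sign, and the difference between them was not tested.

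The 4 spindle checkpoint genes all had positive log2 fold changes. MAD2L1, which holds back the anaphase-promoting complex, had 72.7, 68.8 and 100.2 CPM in shRNF8 libraries, against 80.0, 63.9 and 58.5 CPM in shScr libraries. Its value in shRNF8 replicate 3 was the highest of the 6, and its log2 fold change was 0.26 (SE 0.16, edgeR adjusted p = 0.388) with all libraries and 0.07 (adjusted p = 0.837) without shRNF8 replicate 3. Without shScr replicate 1 MAD2L1 was called (0.40, SE 0.13, edgeR adjusted p = 0.0266). The checkpoint kinase BUB1 was also called without shScr replicate 1 (0.24, edgeR adjusted p = 0.0279), with 0.12 (adjusted p = 0.539) over all libraries. BUB1B, whose product BubR1 binds CDC20, had 0.00 (edgeR adjusted p = 0.998) over all libraries and 0.07 (adjusted p = 0.579) without shScr replicate 1. The 4 genes of anaphase and proteolysis were also all positive. CDC20, the activator of the anaphase-promoting complex, was the most abundant of the 40 per length, at a mean of 740 TPM (scaled per exon length), and CDC25C the least, at 19.9 TPM. CDC20 had 522, 511 and 504 CPM in shRNF8 libraries, against 598, 443 and 447 CPM in shScr libraries. Its log2 fold change was 0.05 (SE 0.12), changed sign to -0.03 and -0.02 without shScr replicate 2 or 3, and was 0.20 (edgeR adjusted p = 0.0476) without shScr replicate 1. UBE2C, the ubiquitin-conjugating enzyme of that complex, had 210, 224 and 241 CPM in shRNF8 libraries, against 219, 178 and 173 CPM in shScr libraries, with overlapping groups and a log2 fold change of 0.25 (SE 0.11, adjusted p = 0.233). PTTG1, which encodes securin, had a log2 fold change of 0.11, and its reads may be split with near-identical copies of the gene.

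Of the 5 kinetochore and centromere genes, 2 had a positive and 3 a negative log2 fold change. The largest in size was that of CENPF, a large kinetochore protein of G2 and mitosis, with 304, 290 and 292 CPM in shRNF8 libraries, against 326, 326 and 306 CPM in shScr libraries. The groups did not overlap but lay close (edgeR adjusted p = 0.469 for a log2 fold change of -0.11, SE 0.08), and none of the 5 was called without shScr replicate 1. CENPA, the histone H3 variant of centromeres, had 36.3, 33.2 and 35.3 CPM in shRNF8 libraries, against 40.5, 34.8 and 33.8 CPM in shScr libraries. Its log2 fold change of -0.06 changed sign to 0.03 without shScr replicate 1. CENPE, NDC80 and NUF2, which link kinetochores to microtubules, had log2 fold changes between -0.02 and 0.07.

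Of the 7 spindle motor and microtubule genes, NUSAP1 had 165, 169 and 181 CPM in shRNF8 libraries, against 145, 147 and 139 CPM in shScr libraries. As in CENPF, shScr replicate 1 lay between the other shScr libraries, and each shRNF8 library was above all shScr libraries (log2 fold change 0.26, SE 0.08, edgeR adjusted p = 0.121). HMMR, a hyaluronan receptor that also binds the spindle, had 66.0, 72.3 and 79.5 CPM in shRNF8 libraries, against 69.8, 52.5 and 53.7 CPM in shScr libraries. Its groups overlapped through shScr replicate 1, and its log2 fold change without that library was 0.45 (SE 0.09, edgeR adjusted p = 0.00205). HMMR overlaps an antisense gene that the unstranded counts cannot separate. KIF11, the motor that pushes spindle poles apart, had a log2 fold change of 0.21, and KIF18B, a motor that shortens astral microtubules, of -0.16. In the midzone and cytokinesis group, ANLN, the anillin of the contractile ring, had 238, 226 and 261 CPM in shRNF8 libraries, against 255, 183 and 184 CPM in shScr libraries. shScr replicate 1 lay among the shRNF8 values of ANLN, whose log2 fold change was 0.22 (SE 0.13, edgeR adjusted p = 0.362), and 0.40 (SE 0.08, adjusted p = 0.00178) without that library. KIF20A and PRC1, which organise the central spindle, had log2 fold changes of 0.00 and -0.07.

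MKI67, whose product coats mitotic chromosomes and serves as a proliferation marker, and TOP2A, the topoisomerase that untangles them, differed in sign. MKI67 had 363, 345 and 279 CPM in shRNF8 libraries, against 430, 388 and 395 CPM in shScr libraries. shRNF8 replicate 3, in which most of the 40 genes were high, was the lowest library for MKI67. The groups did not overlap, and the log2 fold change of -0.30 (SE 0.11, edgeR adjusted p = 0.157) missed the threshold. TOP2A had 424, 401 and 448 CPM in shRNF8 libraries, against 414, 385 and 376 CPM in shScr libraries, with overlapping groups and a log2 fold change of 0.12 (SE 0.09).

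Lists of other genes of the pathway also held no call with all libraries. Of 61 further mitosis genes, 0 were called with all libraries (edgeR, 7 with an unadjusted p under 0.05), with a median log2 fold change of 0.05, against 20.1% of all genes with such a p. Without shScr replicate 1, 18 of the 61 were called higher and 1, INCENP, lower, against 12.8% and 14.3% of all genes. The smallest adjusted p among the 61 was that of ZWILCH, a checkpoint protein of the RZZ complex (log2 fold change 0.45, edgeR adjusted p = 0.0673). Of 15 subunits of the anaphase-promoting complex, 0 were called with all libraries (2 with an unadjusted p under 0.05) and 2, ANAPC13 and ANAPC16, were called higher without shScr replicate 1, near the 12.8% of all genes. Of 15 subunits of DREAM, MYB-MuvB and NF-Y, 0 were called with all libraries (edgeR, 2 with an unadjusted p under 0.05, against 20.1% of all genes). Without shScr replicate 1, 6 were called higher and 0 lower, against 12.8% and 14.3% of all genes. Among the 6 were LIN9, a MuvB core subunit (0.65, edgeR adjusted p = 0.000131), and E2F4, the main E2F of DREAM (0.30, adjusted p = 0.0172).

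S9.6 peaks were then read over each gene and 5000 bp downstream. A gene counted as having a peak when a peak called in that library shared at least 1 bp with this stretch. Before the results, the libraries differed: the 4 shRNF8 lists held 32358, 34103, 50963 and 48546 peaks and the 2 shScr lists 49277 and 38659, with read depth unknown, and peaks listed for shRNF8 replicates 3 and 4 are named as if of replicates 1 and 2, though they are not the same peaks. The sources used here do not say whether shRNF8 replicates 3 and 4 are further libraries of the material of replicates 1 and 2. If they are, the 15 splits behind the permutation p-values below would not be exchangeable, and 2 libraries against 2 allow no p below 0.333. Of the 40 genes, 25, 19, 29 and 30 had a peak in the shRNF8 libraries, against 24 and 24 in the shScr libraries. The shRNF8 libraries lay on both sides of the shScr libraries, so the groups overlapped (mean difference 1.75 genes). With replicates 1 and 2 of both hairpins alone the difference was -2.0, and with the summit of the peak inside the stretch it was -0.5. In the RNase-treated libraries 0 of the 40 genes had a peak, against 3.3% of all genes and 3.51% of genes of like expression and length with a peak in at least 1 of them. These lists held only 254 to 1912 peaks each, so 0 of 40 is near the share of all genes.

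The share of the 40 genes with a peak was below that of other genes of like expression and length in each library. It was 62.5%, 47.5%, 72.5% and 75% in the shRNF8 libraries and 60% in both shScr libraries. The other expressed genes in the same bins of CPM and gene length had shares of 81.0%, 74.9%, 87.0% and 86.1% in the shRNF8 libraries and 86.6% and 84.6% in the shScr libraries. Over all 13541 expressed genes with 1 locus, the shares were 60.3%, 54.4%, 66.2% and 65.1% in the shRNF8 libraries and 67.1% and 62.0% in the shScr libraries, so the 40 genes were above all genes in shRNF8 replicates 1, 3 and 4 and below them in shRNF8 replicate 2 and both shScr libraries. These shares are descriptions and were not tested, since genes share libraries. A peak in all 6 libraries was found for 16 of the 40 (40%), against 45.3% of all genes and 68.3% of genes of like expression and length. No peak in any library was found for 8 of the 40 (20%), against 20.4% and 5.38%. A peak in some libraries only was found for 15 besides PLK1, against 32.1% of all genes. The 8 genes without a peak were CCNB2, NEK2, MAD2L1, CENPE, NUF2, KIF11, KIF20A and TOP2A. Their mean TPM had a median of 80.0, against 151 in the 16 genes with a peak in all 6 libraries. TOP2A was among the most abundant of the 40, at a mean of 408 CPM, and its promoter window is printed above.

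**Figure D3:**
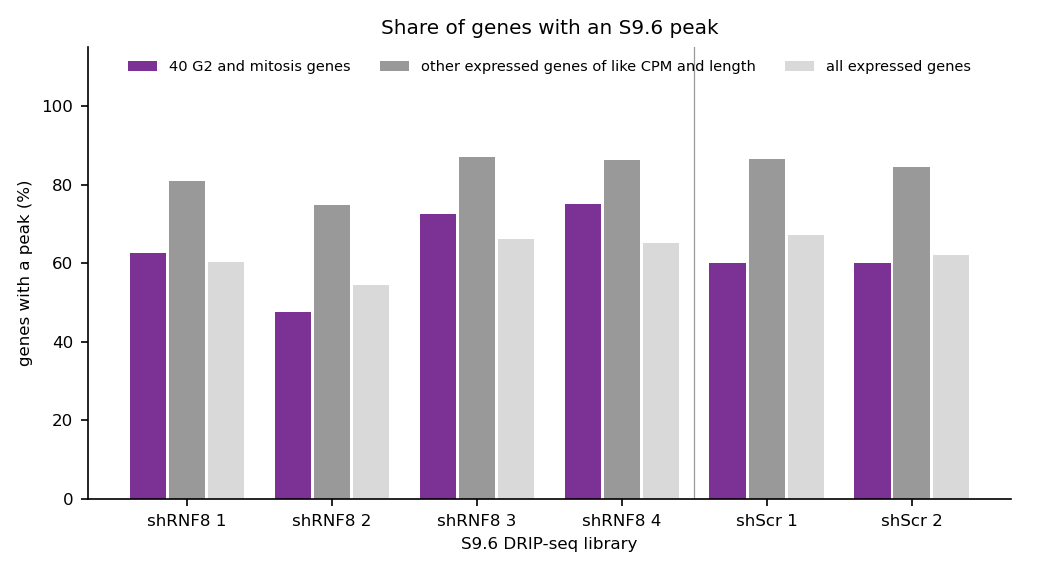
Share of genes with an S9.6 peak over the gene and 5000 bp downstream in each DRIP-seq library, shRNF8 libraries on the left and shScr libraries on the right. The bars of the 40 G2 and mitosis genes (47.5% to 75%) are lower than those of other expressed genes of like CPM and length (74.9% to 87.0%) in all 6 libraries.

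**Figure D4:**
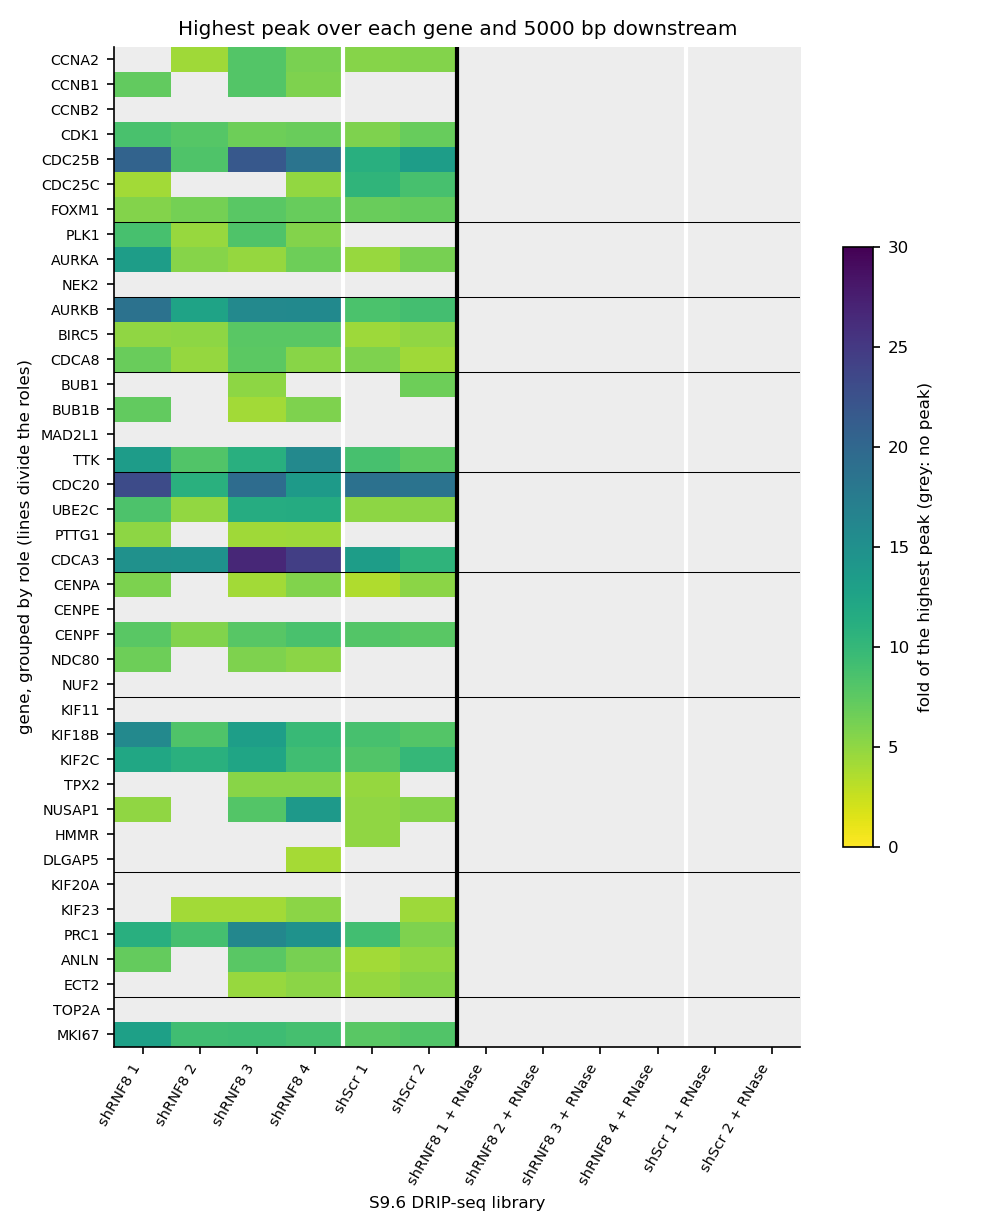
Fold of the highest S9.6 peak over each of the 40 genes and 5000 bp downstream (colour, grey where no peak was called), by role, in the 6 S9.6 libraries and the 6 RNase-treated libraries, shRNF8 before shScr in each block. All cells of the RNase-treated block are grey, 8 genes are grey throughout, and the row of PLK1 is coloured in the 4 shRNF8 libraries and grey in both shScr libraries.

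PLK1 alone had a peak in every shRNF8 library and in no shScr library. This was 1 of the 40 genes, against 0.539% of all genes, and 0 of the 40 had the opposite pattern, against 1.57% of all genes. The highest PLK1 peak had a fold over local background, as deposited, of 8.76, 4.62, 8.23 and 5.56 in the shRNF8 libraries and was absent in both shScr libraries. All 4 peaks were at the gene start, on chromosome 16 at bases 23678555 to 23680496 in shRNF8 replicate 1 (hg38), which covers the promoter window printed above and the first exon. In shRNF8 replicate 2 the peak ran from 148 to 593 bases past the gene start. It lay beyond that window and covered 71.5% of the first exon. The folds of the groups did not overlap, and a two-sided exact permutation test over 15 splits gave p = 0.0667, the smallest this design allows, so the threshold of 0.05 could not be reached. Under a stricter -log10 q of at least 5, 0 of the 40 genes had this pattern, against 0.532% of all genes. Without shRNF8 replicate 2, which had the fewest genes with a peak, 5 of the 40 genes had it, against 1.57% of all genes: CCNB1, PLK1, BUB1B, PTTG1 and NDC80. Leaving out a shRNF8 library can by construction only keep or raise this count, so the 5 genes are a description. CCNB1 had folds of 7.22, 0, 7.97 and 5.79 in shRNF8 libraries, against 0 and 0 in shScr libraries, where 0 stands for no peak (exact permutation p = 0.267). Each of the 5 genes had a peak at its start in shRNF8 replicates 1, 3 and 4, and all but PTTG1 also had peaks away from it in shRNF8 replicate 3 or 4. METTL4 starts within 1000 bp of NDC80 on the other strand, so the start peak there cannot be assigned to either gene. In all, the shRNF8 libraries held 32358, 34103, 50963 and 48546 peaks, against 49277 and 38659 in the shScr libraries. The part of peak number in the pattern was not tested. In RNA, PLK1 and CCNB1 had log2 fold changes of 0.19 and 0.03, neither past the threshold.

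Peak folds that did not overlap between the hairpins were found for 5 genes, 4 higher and 1 lower in shRNF8, against 5.94% of all genes higher and 11% lower. Besides PLK1 these were AURKB, CDCA3, MKI67 and CDC25C, of which AURKB is named because of its values. AURKB had folds of 18.7, 12.6, 15.8 and 15.7 in shRNF8 libraries, against 8.49 and 8.95 in shScr libraries. All 4 shRNF8 values were above both shScr values (two-sided exact permutation p = 0.0667, the smallest possible), and the highest summit was near the gene end in the shRNF8 libraries and inside the gene in the shScr libraries. CDC25C had folds of 4.12, 0, 0 and 4.84 in shRNF8 libraries, against 10.4 and 8.70 in shScr libraries, with the higher values in shScr (exact permutation p = 0.0667). Its peaks were at the outermost gene start in the count table, which it shares head to head with FAM53C, so they cannot be assigned to either gene. When at least 50% of the peak had to lie inside the stretch, the difference in its fold, shRNF8 minus shScr, was -3.91 (exact permutation p = 0.267), against -7.29, and 0 of the 40 genes were lower without overlap. CDCA3, a protein that helps to degrade the kinase WEE1, had folds of 14.9, 14.8, 26.7 and 24.5 in shRNF8 libraries, against 13.2 and 10.5 in shScr libraries (exact permutation p = 0.133). In the shRNF8 libraries the highest peak of CDCA3 was up to 65870 bp wide with its summit beyond the gene. When a peak had to have its summit inside the stretch, the difference of CDCA3 turned to -8.01.

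The highest peak folds among genes with a peak in all 6 libraries belonged to CDC20, CDCA3 and CDC25B. CDC20 had folds of 23.1, 10.9, 19.4 and 13.7 in shRNF8 libraries, against 18.8 and 18.6 in shScr libraries. The groups overlapped (exact permutation p = 0.667), peaks covered the whole inside of this short gene in all 6 libraries, and the stretch also reaches ELOVL1. CDC25B had folds of 20.4, 8.26, 21.8 and 18.5 in shRNF8 libraries, against 11.1 and 13.3 in shScr libraries, also with overlap (exact permutation p = 0.4). Both genes had a peak at the start and at the end in all 6 libraries. CENPB starts within 1000 bp of CDC25B on the other strand, so the start peaks there cannot be assigned to either gene. A peak within 1000 bp of the start in all 6 libraries was found for 10 of the 40 genes (25%), against 24% of all genes and 40.6% of genes of like expression and length, and in at least 1 library for 29 (72.5%), against 62.4% and 81.1%. A peak from 1000 bp before to 5000 bp after the end in all 6 libraries was found for 9 (22.5%), against 28.4% and 45.9%, and in at least 1 library for 20 (50%), against 54.6% and 75.2%.

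Inside the genes, the exonic share of peak length exceeded the exonic share of sequence in all 6 libraries. In 29 of the 40 genes that overlap no other gene, exons made up 9.05% of the sequence more than 1000 bp from either end. Of the peak length there, 34.9%, 41.0%, 27.3% and 25.8% was exonic in the shRNF8 libraries, against 43.8% and 42.1% in the shScr libraries. Both shScr libraries were above all shRNF8 libraries, and shRNF8 replicates 3 and 4, which had the widest peaks (medians of 656 and 654 bp), had the lowest shares. The part of peak width in this was not tested. In 9035 other expressed genes the exon share was 4.83%, and 18.7%, 21.1%, 14.4% and 14.2% of peak length was exonic in the shRNF8 libraries, against 19.8% and 19.6% in the shScr libraries. There the hairpins overlapped, with shRNF8 replicate 2 the highest library and replicates 3 and 4 again the lowest. The pattern rested in part on a few long exons. MKI67 has an internal exon of 6845 bp (chr10:128102579-128109423, hg38), and peaks covered 72.0%, 66.2%, 77.3% and 79.2% of it in the shRNF8 libraries and 62.5% and 51.0% in the shScr libraries. Coverage of this exon was higher in each shRNF8 library than in both shScr libraries. The highest MKI67 peak had folds of 13.0, 9.24, 9.32 and 8.88 in shRNF8 libraries, against 7.67 and 8.15 in shScr libraries (exact permutation p = 0.267). An internal exon of CENPF of 3404 bp (chr1:214639921-214643324, hg38) was covered over 8.26%, 0%, 62.7% and 54.0% of its length in shRNF8 libraries and 62.7% and 60.4% in shScr libraries, so shRNF8 replicates 1 and 2 were low. Without MKI67 and CENPF exons made up 7.38% of the sequence in the remaining 27 genes, and 14.3% to 27.2% of the peak length was exonic in the shRNF8 libraries, against 28.1% and 28.2% in the shScr libraries.

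**Figure D5:**
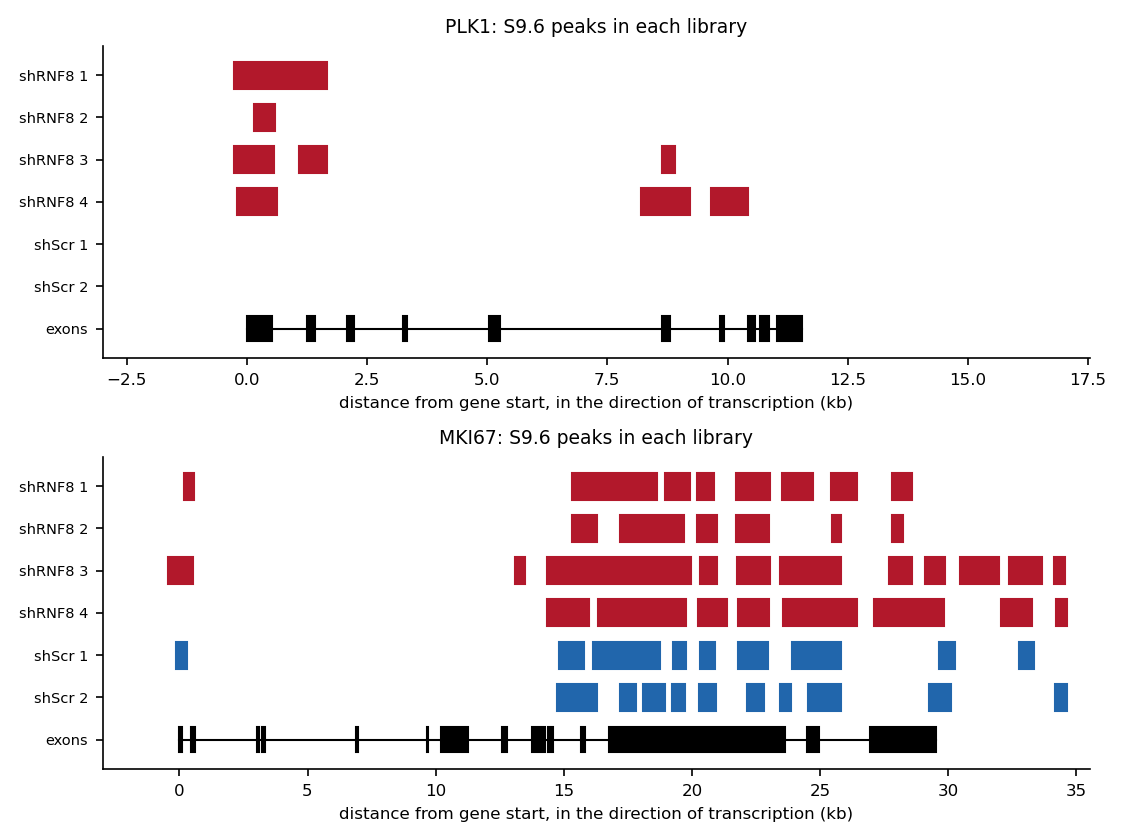
S9.6 peaks (bars, shRNF8 libraries in red above shScr libraries in blue) and exons (black boxes) of PLK1 and MKI67, by distance from the gene start in kb in the direction of transcription. PLK1 has a peak at its start in the 4 shRNF8 libraries and none in the shScr libraries, and in MKI67 peaks of all 6 libraries cover most of the 6845-bp exon, between 51.0% and 79.2% of it.

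RNA differences were also read by S9.6 peak class. The median log2 fold change in RNA with all libraries was 0.06 for the 16 genes with a peak in all 6 S9.6 libraries, 0.12 for the 16 with a peak in some and 0.10 for the 8 with none, and without shScr replicate 1 it was 0.20, 0.19 and 0.16. The RNA and DRIP libraries are separate samples, and no test was made across them.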

How the data were processed

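RNA-seq was analysed in 3 shRNF8 and 3 shScr libraries and S9.6 DRIP-seq in 4 shRNF8 and 2 shScr libraries with 6 RNase-treated libraries. The sample titles gave groups and replicate numbers. The series has 21 samples, of which 3 inputs were not used here. The members and gene lists were chosen with earlier results of these data known.

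The deposited count table holds raw fragment counts per gene, made by the authors with featureCounts from read pairs on an hg38 annotation with no strand option, per the file headers. The deposited peak lists, 1 per library, give each peak's fold over local background (a linear ratio) and its -log10 p and q, as made by the authors. The submitters' processing notes name MACS2 2.2.7.1, STAR 2.7.9a and Subread 2.0.1 among their tools, with no roles, and hg38. What served as control in peak calling is not given in the sources used here. The lowest -log10 q in a list was 2.00 to 2.28, and how deeply the DRIP libraries were read is unknown.

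Counts were tested in R 4.3.3 with edgeR 4.0.16 (filterByExpr, TMM, glmQLFit with robust = TRUE, glmQLFTest, group as the only term), with Benjamini-Hochberg adjustment over 14018 genes and a threshold of 0.05. CPM values are TMM-scaled. TPM values use the exon length in the table. The biological coefficient of variation was 12.4%. The scripts were tested on simulated data. Peaks were read with Python 3.11.15, NumPy 2.4.6 and pandas 2.3.3, and figures drawn with matplotlib 3.10.9. Peak folds per gene are the highest of any overlapping peak, 0 without one, and were compared by two-sided exact permutation over 15 splits, unadjusted. Genes of like CPM and length are 3131 other tested genes in the same decile bins of mean CPM and gene span, weighted by the 40 genes' numbers per bin. Promoter windows come from RefSeq and were matched by symbol.

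Genes described in full were, by rule, the smallest p in each role group, the 2 highest and 2 lowest mean CPM, the 3 smallest p without shScr replicate 1, any gene with a peak in every library of 1 hairpin and none of the other, the 3 highest mean peak folds among genes with a peak in all 6 libraries, and RNF8. The remaining genes were chosen for their role or after their values were seen. Alternatives tried were other scalings, filters, DESeq2 1.42.0, limma-voom (limma 3.58.1), a replicate block, stricter or differently placed peaks, and leaving out libraries.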

Additional observations from a re-analysis of the deposited data

Results flagged for a closer look

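In the shRNF8 DRIP libraries, the highest MKI67 peak fold of replicate 1, 13.0, stood far from the other 3 (9.24, 9.32 and 8.88). Of 17 groups of 4 values examined, this was the 1 so marked, and chance marks about 1 group in 20.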

How the results depend on the processing

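The 40 genes gave 0 calls in RNA with every scaling, filter and tool tried (edgeR, DESeq2, limma-voom), and 13 without shScr replicate 1. Leaving out 1 library at a time gave 0 to 13 calls and a median log2 fold change of 0.04 to 0.19, which was positive in each of the 15 alternatives. Leaving out both shScr replicate 1 and shRNF8 replicate 3, chosen after seeing the data, gave 21 calls. With the replicate block 0 genes were called, with a median of 0.10 and a smallest adjusted p of 0.0938 (edgeR). Same-numbered RNA libraries had deviations correlated at -0.08, 0.13 and -0.28, and 1 of 6 libraries correlated best with its own number, so the numbers were not used as pairs. Over all genes, the block gave 205 higher and 296 lower calls against 136 and 220, DESeq2 gave 310 and 515, and no filter on low counts 267 and 381.

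Of single genes in RNA, the log2 fold change of CENPA (-0.06) ran between -0.108 and 0.0263 when 1 library was left out, positive without shScr replicate 1, and was 0.0181 without that library and shRNF8 replicate 3. CDC20 (0.05) ran between -0.0299 and 0.203, negative without shScr replicate 2 or 3. CDCA3 (0.08) ran between -0.0254 and 0.245, negative without shScr replicate 2. RNF8 kept its call in all 15 alternatives.

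In DRIP, the mean number of genes with a peak differed by 0.333 to 4.0 when 1 library was left out, and by -2.0 with replicates 1 and 2 of both hairpins, chosen after seeing the data. The difference was also negative, at -0.5, when the summit of the peak had to lie inside the stretch. Genes with a peak in every library (16 to 19) and in none (8 or 9) moved little when 1 library was left out. With the summit inside the stretch they numbered 12 and 8, against 38.8% and 21.3% of all genes. At a -log10 q of at least 5 they numbered 14 and 11, against 37.2% and 28.9% of all genes. The pattern of PLK1 was found for 0 genes at a -log10 q of at least 5, for 2 with the gene alone, and for 1 to 5 when 1 library was left out. Genes whose folds did not overlap numbered 5, against 3 when 50% of the peak had to lie inside (3 higher and 0 lower, against 4.95% and 10.8% of all genes), 12 with replicates 1 and 2 of both hairpins (6 higher and 6 lower, against 11.2% and 19.3%), and 5 to 15 when 1 library was left out. The 15 were found without shRNF8 replicate 2 (14 higher and 1 lower, against 13.2% and 11.8%). Cause was not tested. Peak depth is unknown, and 4 against 2 libraries cannot reach p under 0.05.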
